A study of Mus musculus with 12 samples.

Results

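The cluster of miR-322, miR-503, miR-351, miR-542 and miR-450 is a run of 7 miRNA hairpins on the mouse X chromosome. The 10 mature arms described here were taken by name from a deposited table of 1652 mature miRNAs: both arms of miR-322, miR-503, miR-351 and miR-542, and the 5p arms of miR-450a and miR-450b. The 3 remaining arms of the same hairpins, miR-450a-1-3p, miR-450a-2-3p and miR-450b-3p, are given beside them where an arm is set against its partner. Small RNA was sequenced from whole kidney of WT mice that had no treatment, aged 8 days or taken at day 0, with 6 libraries at each age, in a study of miRNAs that may act on the mineralocorticoid receptor of the neonatal kidney. The labels give no strain, sex, litter or batch, and whether each library is a different mouse is not stated. Since the cluster is on the X chromosome, a difference in sex between the ages, if there was one, cannot be told apart from age. All p-values thus reflect the spread between these libraries, which may in part be technical.

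A miRNA hairpin is cut into 2 short strands, the 5p and the 3p arm, and usually 1 of them is kept as the guide that Argonaute loads. The guide finds its messenger RNAs mainly through its seed, bases 2 to 8. miR-322-5p, the mouse counterpart of human miR-424, and miR-503-5p are relatives of the miR-15 and miR-16 family, which lowers cyclins and other drivers of the cell cycle, and both are known from mouse muscle precursors that leave the cycle. miR-351-5p carries the seed of the miR-125 family. In the mouse, new nephrons still form at birth and for a few days after it.

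The arms, from RefSeq on GRCm38.p6, are shown 5′ to 3′ with the seed in capitals, because the seeds place them in different families.
miR-322-5p: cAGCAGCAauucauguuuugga
miR-322-3p: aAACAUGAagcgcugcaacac
miR-503-5p: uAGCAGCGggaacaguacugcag
miR-503-3p: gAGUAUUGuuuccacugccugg
miR-351-5p: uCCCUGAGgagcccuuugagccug
miR-351-3p: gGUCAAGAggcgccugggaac
miR-542-5p: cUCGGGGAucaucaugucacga
miR-542-3p: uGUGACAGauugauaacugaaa
miR-450a-5p: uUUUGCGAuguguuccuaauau
miR-450b-5p: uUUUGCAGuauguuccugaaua
The seeds of miR-322-5p and miR-503-5p share 6 bases, from base 2 to base 7. miR-450a-5p and miR-450b-5p share 5 seed bases and have the same base at 15 of 22 positions. miR-450a-5p is made from 2 hairpins with the same mature sequence, so its value cannot be split between them. Relatives from outside the cluster are shown for the seeds they share with miR-322-5p and miR-351-5p.
miR-16-5p: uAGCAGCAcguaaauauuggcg
miR-195a-5p: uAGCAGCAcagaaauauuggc
miR-125b-5p: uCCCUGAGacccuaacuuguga

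The 7 hairpins lie within 6353 bases at chrX:53047997-53054349 (GRCm38, minus strand), in the order miR-322, miR-503, miR-351, miR-542, miR-450a-2, miR-450a-1 and miR-450b along the strand they are read from. The gaps are 200 bases between miR-322 and miR-503, 630 bases between miR-503 and miR-351, and 3767 bases between miR-351 and miR-542. The 3 miR-450 hairpins follow 1035 bases after miR-542, with 54 and 75 bases between them. In the GENCODE M21 annotation no hairpin overlaps another gene, exonic or intronic. The annotated non-coding gene C430049B03Rik starts upstream on the same strand and ends 696 bases before the hairpin of miR-322, and the lincRNA Gm28730 lies between miR-351 and miR-542. The hairpins of miR-322 and miR-503, neighbours whose 5p arms differed in their change between the ages, are shown with both mature arms in capitals.
Mir322: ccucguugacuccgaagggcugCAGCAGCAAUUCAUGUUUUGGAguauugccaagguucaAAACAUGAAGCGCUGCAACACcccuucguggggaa
Mir503: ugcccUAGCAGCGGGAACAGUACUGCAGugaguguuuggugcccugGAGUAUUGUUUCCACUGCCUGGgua

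Levels are in CPM, the reads of a name per 1000000 miRNA reads of its library. The day 8 libraries held 5.16 to 11.8 M and the day 0 libraries 3.37 to 9.05 M miRNA reads (M, 1000000). Day 0 replicate 6, with the fewest reads of all, and day 8 replicate 3, with the fewest of its age, lay apart on the second principal component of all tested names, at -12.6 and -6.46 against -2.46 to 5.12 in the other libraries. The 4 kidney tubule markers miR-30a-5p, miR-204-5p, miR-192-5p and miR-194-5p were abundant, with a summed level of 33440 to 36369 CPM at day 8 and 10293 to 12805 CPM at day 0. Markers of other tissue were also present: the sum of 3 striated muscle miRNAs was 402 to 497 CPM at day 8 and 484 to 1980 CPM at day 0, and liver miR-122-5p was at 15.2 to 330 CPM and 478 to 3284 CPM. All 4 of these muscle and liver names were lower at day 8 by limma in CPM, and 3 of them with TMM factors, where miR-1a-3p did not pass. Of 3 stromal and smooth muscle names, miR-214-3p was lower (log2 change -2.01, and -1.63 with TMM factors) and miR-143-3p higher (0.37), with a summed level of 40225 to 46045 CPM at day 8 and 32416 to 37980 CPM at day 0. In CPM, endothelial miR-126a-3p (0.25) and 1 of 3 leukocyte names, miR-150-5p (1.22), were also higher. The remaining stromal name, miR-145a-5p (0.19), did not pass in CPM. With TMM factors all 3 leukocyte names were higher, miR-150-5p (1.61), miR-142a-3p (0.75) and miR-223-3p (0.53). So were miR-126a-3p (0.64), miR-143-3p (0.75) and miR-145a-5p (0.58) with these factors. Stromal miR-199a-3p, also listed, had no entry under that name. The red blood cell names miR-451a (-0.25) and miR-144-3p (0.39) did not pass in CPM. Neither did the neuronal name miR-9-5p (-0.001), at a mean of 3933 CPM at day 8 and 4007 CPM at day 0. With TMM factors miR-9-5p was higher (0.39). The other neuronal name, miR-124-3p, was too low to be tested. The part of these tissues in the changes of the cluster was not tested.

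Together the 10 arms made up 21103 ± 1605 CPM at day 8 and 23801 ± 1423 CPM at day 0 (SD, n = 6 each). With TMM factors (edgeR's trimmed mean scaling) the order turned, to 24189 ± 2312 at day 8 and 20785 ± 1033 at day 0. Most of this was miR-322-5p, which made up 81.0% ± 1.61 of the sum at day 8 and 69.7% ± 2.40 at day 0. Without it, the other 9 arms summed to 3995 ± 339 CPM at day 8 and 7189 ± 430 CPM at day 0. Each of the 12 libraries held at least 54887 reads of miR-322-5p, and between 49 and 299 reads of miR-351-3p, the scarcest arm. CPM compares libraries, while differences in level between names also carry how well each sequence is captured.

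**Figure D1:**
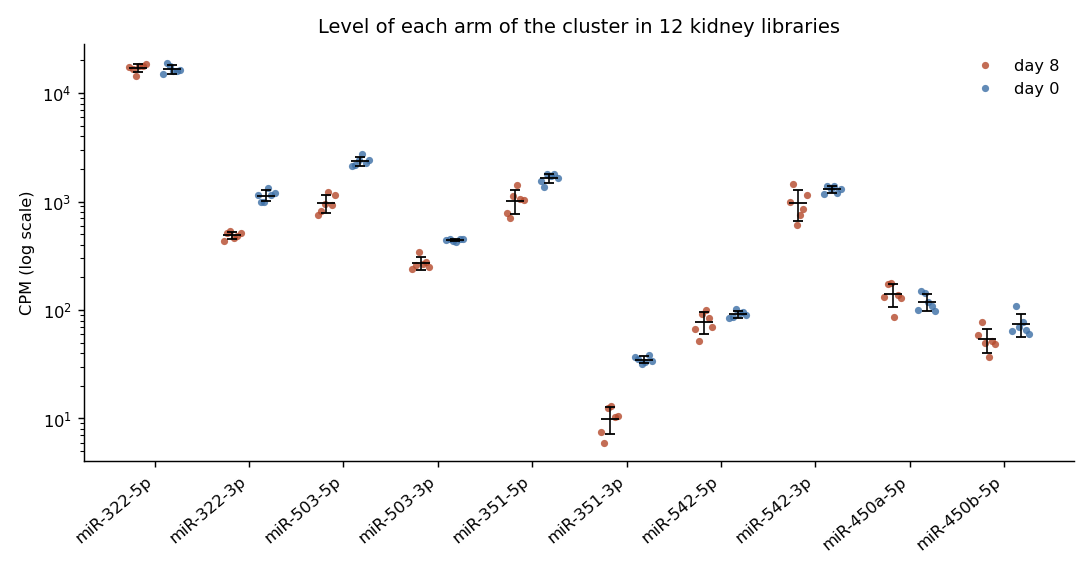
Level of each of the 10 arms in CPM (log scale), with 1 point per library, day 8 left of day 0, and the mean ± SD of 6 libraries in black. The 6 day 8 points of miR-322-3p, miR-503-5p, miR-503-3p and miR-351-3p all lie below the 6 day 0 points, while those of miR-322-5p overlap.

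In order of mean level at day 8, miR-322-5p led, followed by miR-351-5p, miR-503-5p, miR-542-3p, miR-322-3p, miR-503-3p, miR-450a-5p, miR-542-5p, miR-450b-5p and miR-351-3p. At day 0 the order was the same but for miR-503-5p, which stood above miR-351-5p in 6 of 6 libraries. At day 8 the ranges of miR-351-5p, miR-503-5p and miR-542-3p overlapped, so their order does not exceed their spread. The ranges of miR-450a-5p and miR-542-5p, and of miR-542-5p and miR-450b-5p, overlapped at both ages. Those of miR-351-5p and miR-542-3p, and of miR-542-3p and miR-322-3p, also overlapped at day 0. All other neighbours in the order had ranges that did not overlap.

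The first comparison asked which arms differ between the ages. In CPM, miR-322-5p stayed close to its day 0 share of the library, but with TMM factors it was called higher. miR-503-5p and the opposite arms miR-322-3p and miR-351-3p fell under each scaling used. The calls or directions of miR-503-3p, miR-351-5p, miR-542-3p, miR-542-5p, miR-450a-5p and miR-450b-5p hung on the scaling. By limma on log2(CPM + 1) over 564 names, with Benjamini-Hochberg adjustment at 0.05, 7 of the 10 arms were lower at day 8 and 0 were higher, also at an unadjusted p under 0.05. edgeR on recovered reads, with TMM factors, called 4 lower and 2 higher, and 368 of the 564 names in either direction. In the limma fit on CPM, 48.2% of all names tested were called lower and 16.5% higher. The median log2 change, always day 8 minus day 0, was -0.60 over the 10 arms and -0.34 over all names. Since CPM is a share of the library, this shift of the whole table matters. With CPM divided by TMM factors the median of all names was -0.00, and 4 arms were lower and 2 higher, against 34.2% and 30.3% of all names. With upper quartile factors 3 were lower and 2 higher, against 27.8% and 37.8%. All 10 arms passed the filter on low values. In whole kidney, fewer cells of a type and less of a miRNA per cell cannot be told apart.

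miR-322-5p, the guide arm that dominates the cluster, had 14451, 17568 and 18608 CPM as the lowest, median and highest value at day 8, against 14915, 16094 and 18944 CPM at day 0. The ages overlapped. Its log2 change was 0.04 with a 95% confidence interval from -0.12 to 0.20, and limma gave an adjusted p of 0.643. With TMM factors the change was 0.43 (0.26 to 0.61, limma adjusted p = 0.000289). Whether it rose thus depends on the scaling. Its opposite arm, miR-322-3p, had 433, 495 and 533 CPM at day 8, against 983, 1155 and 1325 CPM at day 0. All day 8 libraries lay below all day 0 libraries. It fell 2.32-fold, with a log2 change of -1.21 (SE 0.0913, limma adjusted p = 3.8e-08) that was -0.82 with TMM factors.

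miR-503-5p, the close relative of miR-322-5p, had 759, 939 and 1228 CPM at day 8, against 2140, 2329 and 2718 CPM at day 0, with no overlap. It fell 2.42-fold, with a log2 change of -1.29 (SE 0.117, limma adjusted p = 2.2e-07) that was -0.90 with TMM factors. Its place among all names by mean CPM was 85 at day 8 and 59 at day 0. miR-503-3p had 238, 263 and 340 CPM at day 8, against 420, 447 and 455 CPM at day 0. The ages did not overlap for this arm either, and its log2 change was -0.71 (SE 0.0906, limma adjusted p = 7.5e-06). It was -0.32 with TMM factors, and with upper quartile factors, at -0.14, it did not pass.

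miR-351-5p, with the seed of miR-125, had 698, 1037 and 1431 CPM at day 8, against 1355, 1677 and 1800 CPM at day 0. Day 8 replicate 4, the highest of its age, reached into the day 0 range. The log2 change was -0.72 (SE 0.149, limma adjusted p = 0.000604), but with TMM factors it was -0.33 and failed to pass (limma adjusted p = 0.0653). miR-351-3p had 6.0, 10.4 and 13 CPM at day 8, against 31.5, 34.8 and 38.2 CPM at day 0, with a wide gap between the ages. It fell 3.51-fold, the most of the 10 arms under limma with CPM, TMM or upper quartile scaling. Its log2 change was -1.75 (SE 0.163, limma adjusted p = 2.9e-07) and -1.39 with TMM factors.

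miR-542-3p, known in human cells to target the survival factor survivin, had 602, 917 and 1452 CPM at day 8, against 1177, 1311 and 1398 CPM at day 0. Day 8 spanned a wide range, and its highest library lay above every day 0 library. The log2 change of -0.48 (limma adjusted p = 0.0201) shrank to -0.10 under TMM scaling, where it missed the threshold, and under upper quartile scaling its direction turned (0.09). Without both libraries that lay apart, day 8 replicate 3 and day 0 replicate 6, the change was -0.36 and did not pass (limma adjusted p = 0.0535). miR-542-5p had 51.8, 77.4 and 100.01 CPM at day 8, against 84.4, 91.5 and 103 CPM at day 0, and did not pass (log2 change -0.27, 95% confidence interval -0.58 to 0.03). TMM scaling gave 0.11. When day 8 replicate 4 was left out it passed, at -0.35.

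miR-450a-5p had 85.9, 135 and 178 CPM at day 8, against 98.2, 114 and 150 CPM at day 0. Its log2 change was 0.20 (95% confidence interval -0.17 to 0.57) and did not pass, while with TMM factors it was 0.59 and passed (limma adjusted p = 0.00570). miR-450b-5p, from a neighbouring hairpin, had 36.7, 50.6 and 76.8 CPM at day 8, against 59.9, 67.6 and 108 CPM at day 0. Its log2 change of -0.47 (limma adjusted p = 0.0303) shrank to -0.08 under TMM scaling, where it missed the threshold, and was 0.10 under upper quartile scaling. The call was also lost when day 8 replicate 4, 5 or 6 or day 0 replicate 2 or 4 was left out singly, at -0.46 to -0.35. For none of these 4 arms did the ages separate. Over the 10 arms, 4 had no overlap between the ages and were lower at day 8, against 35.1% of all names, and 0 were higher, against 10.8%.

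**Figure D2:**
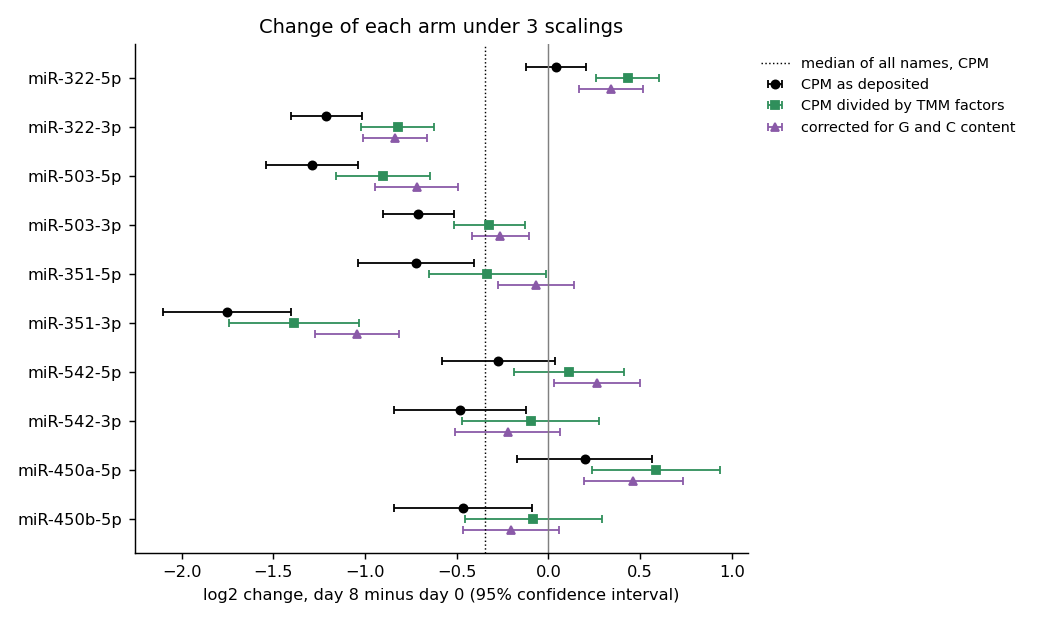
Log2 change of each arm, day 8 minus day 0, with its 95% confidence interval from limma, for CPM as deposited, CPM divided by TMM factors, and values corrected for G and C content. The dotted line is the median of all names in CPM (-0.34). miR-322-3p, miR-503-5p, miR-503-3p and miR-351-3p lie below 0 under the 3 scalings, while miR-322-5p and miR-450a-5p lie above it.

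The second comparison set the 2 arms of a hairpin against each other, which does not depend on scaling to the library total. The miR-322 and miR-351 hairpins kept relatively more of their 5p arm at day 8, while the miR-503 hairpin kept relatively less. Fitted by limma in log2 over 72 hairpins, the arm ratio was called for 4 of the 5 cluster hairpins with matched arm names, where 62.5% of all hairpins were called. For miR-322 the ratio of 5p to 3p CPM was 35.3 ± 4.85 at day 8 and 14.9 ± 2.96 at day 0 (SD, n = 6 each). The lowest day 8 ratio, 27.1, lay above the highest day 0 ratio, 19.3. The log2 change of 1.25 (SE 0.141, limma adjusted p = 1.5e-06) ranked 4 by size among the 72. For miR-351 the ratio was 104 ± 9.85 at day 8 and 47.4 ± 6.71 at day 0, again with no overlap (log2 change 1.03, limma adjusted p = 1.4e-06). Its 3p arm, at 9.96 CPM at day 8 and 34.9 CPM at day 0, reached the minimum mean of 20 CPM for this test only through day 0, so its place among the hairpins called supports nothing. With a minimum of 5 CPM, which the arm met at both ages, the change was the same and passed.

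For miR-503 the ratio went the other way, at 3.62 ± 0.791 at day 8 and 5.33 ± 0.648 at day 0 (SD, n = 6 each). The ages did not overlap, with 4.61 as the highest day 8 and 4.79 as the lowest day 0 ratio, and the log2 change was -0.58 (limma adjusted p = 0.00286). In miR-503 the more abundant arm thus lost share, whereas in miR-322 and miR-351 the scarcer arm did. The ages did not overlap in these 3 of the 5, against 34.7% of all hairpins. miR-351 is among the 3 only through the day 0 level of its 3p arm, so it supports nothing in this count. Among all 45 hairpins called, the scarcer arm lost share in 26 and gained share in 19.

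miR-542 is the 1 cluster hairpin with matched names whose ratio did not pass. Its 5p to 3p ratio was 0.0913 ± 0.0442 at day 8 and 0.0710 ± 0.00696 at day 0 (SD, n = 6 each), with a log2 change of 0.21 and a 95% confidence interval from -0.35 to 0.78. At day 8 the libraries ran from 0.0357 to 0.151, a range that held every day 0 value. Its size rests on single libraries, being 0.45 without day 8 replicate 2, 0.035 without day 8 replicate 3 and 0.075 without day 8 replicate 4, and it passed in none of these. In miR-450b the 3p arm was the more abundant, at 124 ± 10.1 CPM at day 8 and 236 ± 8.22 CPM at day 0, with no overlap (log2 change -0.93, limma adjusted p = 1.7e-07, and -0.54 with TMM factors). Its 5p to 3p ratio was 0.433 ± 0.0979 at day 8 and 0.316 ± 0.0844 at day 0, and the log2 change was 0.46 (limma adjusted p = 0.0315). This call was lost when day 8 replicate 1 or 2 or day 0 replicate 1, 3, 5 or 6 was left out singly, at 0.38 to 0.44.

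miR-450a-5p has its partners under 2 names. miR-450a-1-3p was at 22.3 ± 1.42 CPM at day 8 and 31.3 ± 3.05 CPM at day 0, and miR-450a-2-3p at 20.4 ± 3.74 and 29.8 ± 6.13 CPM (SD, n = 6 each). Both were lower at day 8 by limma in CPM (log2 changes -0.46 and -0.52), but not with TMM factors (-0.09 and -0.15), and with upper quartile factors their direction turned (0.08 and 0.03). The ratio of miR-450a-5p to the sum of both 3p arms was 3.26 ± 0.736 at day 8 and 1.95 ± 0.175 at day 0. The ages did not overlap, and a two-sided exact permutation test over all assignments of the libraries to the ages gave an unadjusted p = 0.00216. This is the smallest it can give, and any ratio without overlap gets it. Of the 72 hairpins with matched arm names, 34.7% had no overlap.

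**Figure D3:**
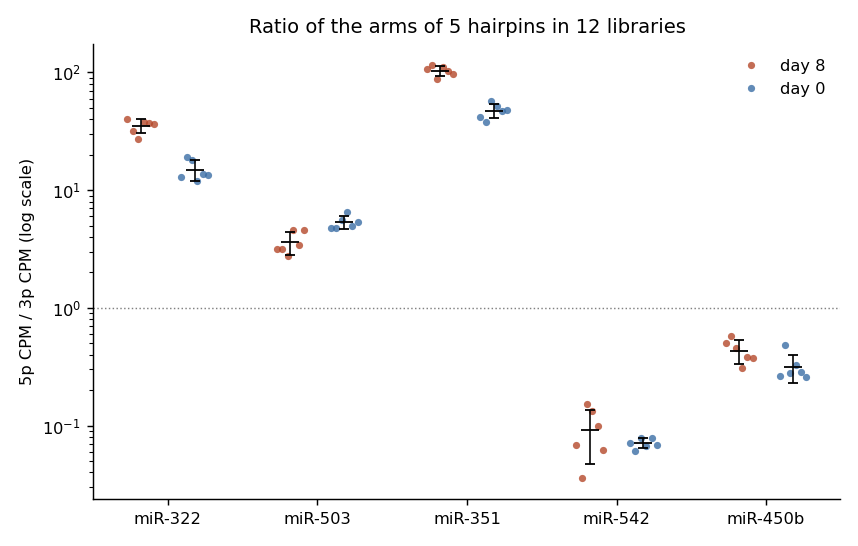
Ratio of 5p to 3p CPM (log scale) for the 5 hairpins with matched arm names, with 1 point per library, day 8 left of day 0, and mean ± SD of 6 libraries in black. The day 8 points of miR-322 and miR-351 lie above all day 0 points and those of miR-503 below them, while those of miR-542 and miR-450b overlap.

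The third comparison asked whether arms of the shared locus keep their proportions to each other. Of 45 pairs of the 10 arms, the within-library log2 ratio differed between the ages in 33 (two-sided exact permutation test, Benjamini-Hochberg adjusted over the 45 pairs), and in 18 the libraries of the ages did not overlap. The same 33 pairs, or 73.3%, passed at an unadjusted p under 0.05, against 73.6% of the 48828 pairs of all 313 names with a mean of at least 20 CPM. The 18 of 45 without overlap compare with 51.5% of the pairs of all names. The cluster's counts were thus near or below those of the table and are not particular to this locus. All pairs of miR-351-3p are among the 33, but this arm reached the minimum mean of 20 CPM only through day 0. Its pairs thus support nothing in these counts. The smallest p the test can give is 0.00216, which is 0.00541 after adjustment. The log2 ratio of miR-322-5p to miR-503-5p, from neighbouring hairpins, was 4.15 ± 0.260 at day 8 and 2.82 ± 0.192 at day 0 (SD, n = 6 each), a difference of 1.33 with no overlap between the ages (exact permutation adjusted p = 0.00541). The ratio of miR-322-5p to miR-351-5p differed by 0.76 (exact permutation adjusted p = 0.0127). Likewise, that of miR-322-5p to miR-542-3p, at the far side of the longest gap, differed by 0.53 (exact permutation adjusted p = 0.0227).

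Relative to miR-322-5p, miR-351-5p, miR-542-3p, miR-450a-5p and miR-450b-5p, miR-503-5p was lower at day 8 than at day 0 in each pair. Relative to miR-351-3p it was higher (0.46, exact permutation adjusted p = 0.0144). That pair entered only through the day 0 level of miR-351-3p and supports nothing. The log2 ratio of miR-503-5p to miR-351-5p was -0.05 ± 0.199 at day 8 and 0.52 ± 0.139 at day 0 (SD, n = 6 each) (exact permutation adjusted p = 0.00541). Its ratio to miR-450a-5p differed by -1.49 (exact permutation adjusted p = 0.00541). The ratio also differed for miR-450a-5p and miR-450b-5p, from adjacent hairpins, with log2 ratios of 1.36 ± 0.250 at day 8 and 0.69 ± 0.188 at day 0 (exact permutation adjusted p = 0.00541). The 12 pairs that did not pass include miR-322-5p with miR-450a-5p (difference -0.16), miR-322-3p with miR-503-5p (0.08), miR-503-3p with miR-351-5p (0.01) and miR-542-3p with miR-450b-5p (-0.02).

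**Figure D4:**
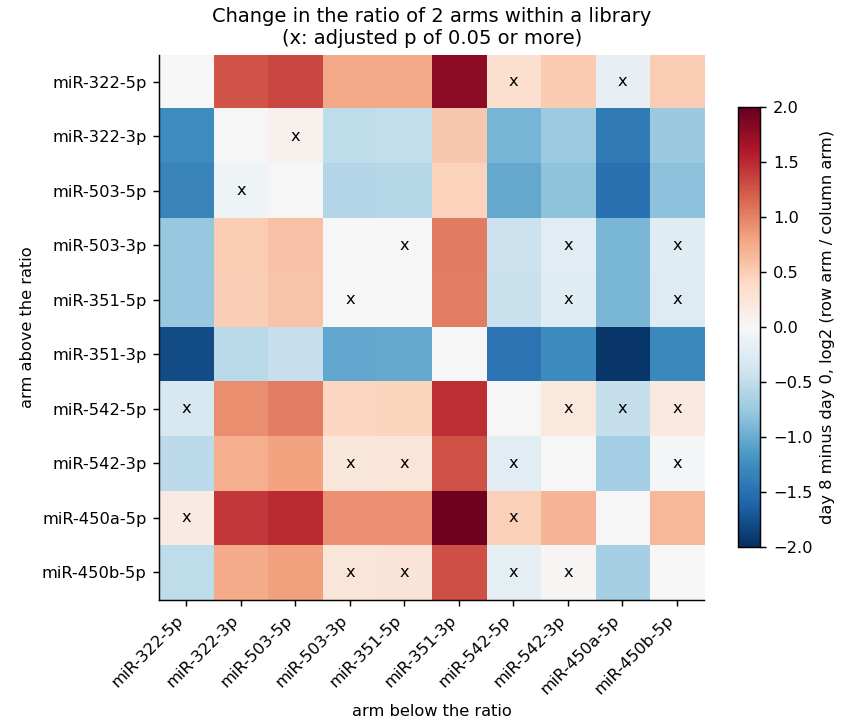
Difference between the ages, day 8 minus day 0, in the log2 ratio of the row arm to the column arm within a library, with x where the exact permutation adjusted p is 0.05 or more. The rows of miR-322-5p and miR-450a-5p are mostly red and those of miR-503-5p, miR-322-3p and miR-351-3p mostly blue.

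Seeds that are shared with other miRNAs put these levels in proportion. Seeds were read only for names with a RefSeq sequence, which 482 of the 564 tested names had. Relatives without a sequence would be missed. Among names with one, 7 in the table hold the full seed of miR-322-5p, AGCAGCA. Together these 7 made up 90455 ± 5829 CPM at day 8 and 102672 ± 4079 CPM at day 0 (SD, n = 6 each). miR-322-5p was 18.9% ± 1.22 of that sum at day 8 and 16.2% ± 0.969 at day 0, with an overlap between the ages (exact permutation p = 0.00649, also after adjustment over 2 such shares). miR-16-5p, which holds most of the rest, was at 67092 ± 4762 CPM at day 8 and 80219 ± 3017 CPM at day 0, and its log2 change of -0.26 turned to 0.13 with TMM factors. In contrast to miR-503-5p, the relatives miR-195a-5p and miR-497a-5p rose. miR-195a-5p was at 953 ± 148 CPM at day 8 and 371 ± 34.5 CPM at day 0 (log2 change 1.35, limma adjusted p = 1.1e-07). miR-497a-5p was at 1045 ± 202 CPM at day 8 and 516 ± 75.2 CPM at day 0 (log2 change 1.01, limma adjusted p = 2.1e-05). Both had no overlap between the ages. miR-15b-5p was lower (-0.47), though under TMM scaling it missed the threshold (-0.08), and miR-15a-5p did not pass (0.23, and 0.62 with TMM factors, past it).

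The seed of miR-351-5p, CCCUGAG, is carried by 4 of the names in the table that have a RefSeq sequence. miR-351-5p made up 1.82% ± 0.130 of their sum at day 8 and 3.89% ± 0.308 at day 0 (SD, n = 6 each). The highest day 8 share, 2.0%, lay below the lowest day 0 share, 3.36%, and the exact permutation p was 0.00216, or 0.00433 adjusted over both shares. miR-125a-5p and miR-125b-5p hold nearly all of that sum. miR-125a-5p was at 22912 ± 7256 CPM at day 8 and 15209 ± 2115 CPM at day 0 (log2 change 0.54, limma adjusted p = 0.0155). miR-125b-5p was at 32624 ± 8860 CPM at day 8 and 25643 ± 3083 CPM at day 0, and did not pass (0.31), though it did with TMM factors (0.70) and without day 8 replicate 2 (0.44). No other name with a RefSeq sequence in the table carries the full seed of miR-503-5p, miR-542-3p, miR-450a-5p or miR-450b-5p.

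A further X chromosome cluster, with miR-106a, miR-18b, miR-20b and miR-363, lies 305.4 kb away at chrX:52741693-52742567. None of its 4 tested arms passed in CPM, with log2 changes of -0.18 for miR-106a-5p, -0.27 for miR-18b-5p, 0.05 for miR-20b-5p and -0.05 for miR-363-3p. Of all names tested, 48.2% were called lower and 16.5% higher in CPM. At an unadjusted p under 0.05, 1 of the 4 passed (miR-18b-5p). With TMM factors miR-20b-5p (0.44) and miR-363-3p (0.33) were higher, as they were by edgeR. miR-106a-5p was higher with upper quartile factors (0.38) and by DESeq2 (0.24). Of all names, 30.3% were higher with TMM and 37.8% with upper quartile factors. miR-92a-2-5p did not reach the filter on low values.

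By profile over the 12 libraries, the names nearest to miR-322-5p were miR-186-5p, miR-152-3p, miR-27b-3p, miR-340-5p and miR-223-3p, with root mean square differences in log2(CPM + 1) deviations of 0.0968 to 0.131. They were taken from 207 names outside the cluster with a mean of at least 100 CPM. The names nearest to miR-503-5p were miR-411-5p, miR-93-5p, miR-434-5p, miR-434-3p and miR-672-5p, at 0.199 to 0.237. These lists describe likeness and were not tested.

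Within an age, the arms did not all deviate in the same direction in a library. At day 0 the spread of miR-503-3p, 2.98% of its mean (SD, n = 6), was close to its mean counting error of 1.85%. At day 8 miR-542-3p varied by 31.3%, against a counting error of 1.12%. The 2 arms of miR-542 moved in opposite directions at day 8: in replicate 2 the 3p arm was at its highest and the 5p arm at its lowest (1452 and 51.8 CPM), while in replicate 3 the values were 602 and 90.9 CPM. In day 8 replicate 4 miR-503-5p, miR-351-5p, miR-351-3p and miR-542-5p were each at their highest for that age, and miR-450a-5p and miR-450b-5p at their lowest. At day 0, replicate 2 held the highest miR-322-5p, miR-542-3p, miR-450a-5p and miR-450b-5p, and the lowest miR-322-3p and miR-351-5p.

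These groups of arms differ in base content. In day 8 replicates 2 and 4, miR-542-3p, miR-450a-5p and miR-450b-5p deviated in the direction opposite to miR-542-5p, miR-503-5p, miR-351-5p and miR-351-3p. Not every library split in this way. In day 8 replicate 3, miR-450a-5p (0.39) lay above the log2 mean of its age, as did miR-351-3p (0.35), miR-542-5p (0.26) and miR-351-5p (0.17). In that library miR-542-3p (-0.62), miR-450b-5p (-0.07) and miR-503-5p (-0.03) lay below it. Whether base content accounts for the deviations was not tested. miR-542-5p, miR-503-5p, miR-351-5p and miR-351-3p hold 54.5%, 56.5%, 62.5% and 66.7% G and C, and miR-542-3p, miR-450a-5p and miR-450b-5p hold 31.8% each. Over 482 tested names with a RefSeq sequence, the median log2 change was -0.61 for names with 55% G and C or more, and between -0.36 and -0.17 in the 4 lower bins. The Spearman correlation of G and C content with the log2 change over these names was -0.16. A fit after removing, in each library, the trend of all names with G and C content was therefore added. Removing the trend also recentred each library, so this fit is a further scaling. The median log2 change of all names in it was 0.06, against -0.34 in CPM. Its calls of single arms thus carry both the recentring and base content, which were not separated. The fit called 4 arms lower, miR-322-3p, miR-503-5p, miR-503-3p and miR-351-3p, and 3 higher, miR-322-5p, miR-450a-5p and miR-542-5p, against 33.4% and 36.1% of all names. In it the log2 change of miR-351-5p was -0.07 (SE 0.0969, limma adjusted p = 0.560), that of miR-503-5p was -0.72 and that of miR-542-5p was 0.26. The 5p to 3p ratio of miR-322 differed by 1.18 in this fit (limma adjusted p = 6.9e-07), and that of miR-542 by 0.49 (limma adjusted p = 0.0393), and 32 of the 45 pairs passed.

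**Figure D5:**
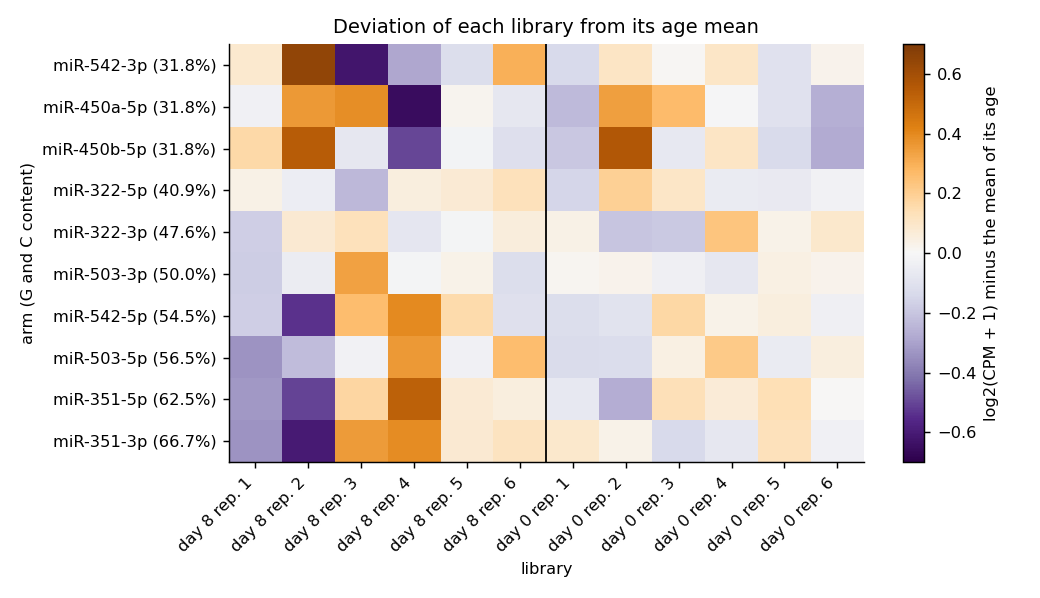
Deviation of each library from the mean of its age, in log2(CPM + 1), for the 10 arms ordered by G and C content (in parentheses), with day 8 libraries left of day 0. In day 8 replicates 2 and 4, miR-450a-5p and miR-450b-5p deviate in the direction opposite to miR-503-5p, miR-351-5p and miR-351-3p. In day 8 replicate 3, miR-450a-5p deviates in the same direction as miR-351-5p and miR-351-3p.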

How the data were processed

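The 6 day 8 and 6 day 0 small RNA libraries were grouped by the age label. RNA was extracted with a NucleoSpin miRNA kit and the library kit was QIAseq miRNA, per the labels' protocols. Which aligner, genome build and miRBase release were used, and whether molecular identifiers were counted, is not given in the sources used here. The authors deposited CPM values, each library summing to 1000000. Within 0.001 of a read, 100.0% of the values were whole multiples of 1 read, so reads could be recovered, and edgeR on them called 368 names. Read numbers limit counting error only. Within an age, each pair of libraries differed by a chi-square of at least 50.9 per degree of freedom, so no library was a copy.

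In R 4.3.3, limma 3.58.1 was fitted, its prior variance following the mean, to log2(CPM + 1) for the 564 names with at least 1 CPM in at least 6 libraries. The log2(CPM + 1) scale understates changes of low names. Arm ratios were fitted likewise where each arm of a hairpin averaged 20 CPM or more. Pairs of arms and single shares were tested by exact permutation, with all pairs of names as a background added after seeing the data. Alternatives used edgeR 4.0.16, DESeq2 1.42.0, TMM and upper quartile factors, other pseudocounts and filters, and fits with libraries left out. The correction for G and C content, the arm fit with no trend and the joint exclusion of 2 libraries were added after seeing the data. The limma, edgeR, DESeq2 and arm ratio fits were tested on simulated data.

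The members, lists and tests were chosen with earlier results of these data known. Named were all arms of the cluster, the listed seed relatives and X chromosome neighbours past the filter, and the 5 names nearest in profile to each of miR-322-5p and miR-503-5p. Mature sequences and positions were matched by name in RefSeq (GRCm38.p6) and GENCODE M21 (GRCm38). All 10 arms matched.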

Additional observations from a re-analysis of the deposited data

Results flagged for a closer look

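Of 34 sets of 6 libraries examined for a library far from the rest, 2 held one. The sets share libraries and are not independent, and how many chance would give was not tested. miR-503-3p was at 340 CPM in day 8 replicate 3, above the 238 to 275 CPM of the other day 8 libraries. The 5p to 3p ratio of miR-450b was 0.481 in day 0 replicate 2, above the 0.258 to 0.327 of the other day 0 libraries.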

How the results depend on the processing

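limma called 365 names in CPM, and between 327 and 375 with each library left out in turn. It called 402 with no filter and 258 with at least 10 CPM, where more or fewer names were tested. Of the 10 arms, 4 were lower and 2 higher with TMM factors, by edgeR and by DESeq2, 3 and 2 with upper quartile factors, and 4 and 3 with the correction for G and C content. With no filter, and without both libraries that lay apart, 6 were lower and 0 higher. Leaving out each library gave 6 to 7 lower and 0 to 0 higher. miR-322-3p, miR-503-5p and miR-351-3p were lower under each of these scalings and tools. Of the hairpins, 45 were called in the main setting, 68 with arms of at least 5 CPM and 26 with at least 100 CPM, where more or fewer were tested, and 41 to 45 with each library left out. Pairs called ranged from 32 to 34 with each library left out, and 29 without both libraries. The sum of the 10 arms was 24189 CPM at day 8 and 20784 CPM at day 0 with TMM factors, the opposite order. With each library left out it was 20736 to 21660 CPM at day 8 and 23430 to 24226 CPM at day 0.

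The sign of these log2 changes turned, given for TMM, upper quartile, edgeR, DESeq2 and G and C correction in that order. miR-542-5p was 0.11, 0.29, 0.14, 0.17 and 0.26. miR-16-5p was 0.13, 0.31, 0.13, 0.17 and 0.060. miR-106a-5p was 0.20, 0.38, 0.21, 0.24 and 0.20. miR-18b-5p was 0.11, 0.29, 0.12, 0.16 and 0.032. miR-363-3p was 0.33, 0.51, 0.34, 0.38 and 0.25. With upper quartile factors only, miR-450b-5p was 0.10, miR-450a-1-3p 0.084, miR-450a-2-3p 0.027 and miR-15b-5p 0.10. miR-542-3p was 0.085 with upper quartile factors and 0.015 by DESeq2. miR-20b-5p ranged from -0.050 to 0.15 with each library left out. Beyond the scalings' own construction, the cause was not tested.

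No paired analysis was possible because the labels give the ages no shared replicate numbers. Sequencing depth limits mainly miR-351-3p and, beside the 10 arms, miR-450a-1-3p and miR-450a-2-3p. The mean counting error of miR-351-3p was 10.8% at day 8 and 6.61% at day 0. For miR-450a-1-3p it was 7.09% and 7.02%, and for miR-450a-2-3p 7.46% and 7.27%.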
